A study of Mus musculus with 6 samples.

Results

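Matrix metalloproteinases (MMPs), the related ADAM sheddases and their tissue inhibitors (TIMPs) were examined in 3 cell populations sorted from mammary tumors. The 9 genes, *Mmp2*, *Mmp3*, *Mmp14*, *Mmp15*, *Adam10*, *Adam17*, *Timp1*, *Timp2* and *Timp3*, were taken by symbol from a deposited table of 14897 genes. The tumors were spontaneous mammary tumors of FVB/N mice (strain FVBN in the labels) that carry the polyoma virus middle T antigen under the MMTV promoter, which is active mainly in mammary epithelium. CD29hi CD61+ BCSCs (P1), ALDH+ BCSCs (P2) and the remaining bulk cancer cells (P0, non-CSC in the labels) were sorted from the same 2 tumors, so that each population had 2 libraries and all 3 carried the same oncogene. The age of the mice was not given, nor whether both tumors came from 1 animal. The comparisons asked how each BCSC population differed from bulk cells, and how the BCSC populations differed from each other.

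MMPs are zinc endopeptidases made as inactive proenzymes, and together they cut most proteins of the extracellular matrix. MMP2 and MMP3 are secreted, whereas MMP14 and MMP15 are anchored in the plasma membrane, where MMP14 activates pro-MMP2 with TIMP2 as the bridge between them. ADAM10 and ADAM17 release the ectodomains of membrane proteins such as Notch receptors, E-cadherin, TNF and the EGF receptor ligands. TIMPs bind the active site of these enzymes, and in mammary tumors the proteases and TIMPs are made by both cancer cells and stromal cells.

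The upstream sequences differed between *Mmp3*, which had no reads in bulk cells of tumor 1, and the TIMP genes that stood highest in P1. RefSeq promoters on GRCm38.p6 (250 bases before to 50 bases after the annotated start, 300 bases in all) were available for 8 of the 9 genes, *Mmp2* being the one without an entry. *Mmp3* (chr9:7445572-7445871, plus strand) is shown with *Timp1* (chrX:20869916-20870215, plus strand) and *Timp3* (chr10:86300162-86300461, plus strand), with matches to the AP-1 motif in capitals.
Mmp3: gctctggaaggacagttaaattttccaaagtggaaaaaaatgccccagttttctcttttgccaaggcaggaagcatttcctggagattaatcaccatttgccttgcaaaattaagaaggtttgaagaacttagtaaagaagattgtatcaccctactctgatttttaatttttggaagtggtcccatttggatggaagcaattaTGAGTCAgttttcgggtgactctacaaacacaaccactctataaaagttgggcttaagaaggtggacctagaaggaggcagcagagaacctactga
Timp1: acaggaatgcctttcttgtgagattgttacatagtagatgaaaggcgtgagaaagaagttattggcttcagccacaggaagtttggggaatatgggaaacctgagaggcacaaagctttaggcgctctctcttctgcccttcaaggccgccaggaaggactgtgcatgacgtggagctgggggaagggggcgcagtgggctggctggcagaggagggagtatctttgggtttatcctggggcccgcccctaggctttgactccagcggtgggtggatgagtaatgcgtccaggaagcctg
Timp3: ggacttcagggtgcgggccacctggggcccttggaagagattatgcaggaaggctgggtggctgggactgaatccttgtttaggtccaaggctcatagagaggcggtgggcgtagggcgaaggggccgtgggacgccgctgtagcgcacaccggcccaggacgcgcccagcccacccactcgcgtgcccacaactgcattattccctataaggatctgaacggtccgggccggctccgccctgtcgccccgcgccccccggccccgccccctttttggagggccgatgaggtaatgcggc
The AP-1 letters TGANTCA, searched on both strands and overlapping neither other motif here, occurred in the *Mmp3* window (TGAGTCA, 46 bases before the start) and in none of the other 7, against 7.81% of 32851 mouse promoters of the same length. TATAAA was likewise found in *Mmp3* alone of the 8, against 13.6% of all promoters. The GC box GGGCGG, searched on both strands, occurred in each of the other 7 windows and not in *Mmp3*, against 35.7% of all promoters. The *Mmp3* window had a GC content of 40%, whereas *Timp1* had 55% and *Timp3* 67%. These are exact matches of letters and were not tested as binding sites. Near matches were not searched for, such as tgagtaa close to the end of the *Timp1* window.

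The libraries held 19037070 to 48008802 reads in genes. In tumor 1, 1947 genes in P1, 3904 in P2 and 3290 in P0 had no reads, against 360, 759 and 446 in tumor 2, so the libraries of tumor 1 stood apart in each population. They were also the deeper ones, with 48008802 reads in P1, 23773850 in P2 and 36200687 in P0, against 21577459, 19037070 and 19443201 in tumor 2. Levels are given as RPKM, in which reads are divided by the length of the gene and the library total, and this allows levels of different genes to be set side by side. The RPKM of 6 luminal epithelial markers summed to 10587 and 9234 in P1, 17638 and 10093 in P2, and 13043 and 10796 in P0 of tumors 1 and 2. All 6 were detected in every library. The sum was lowest in P1 in both tumors and came mostly from *Krt18* and *Krt8*, which were lower in P1 than in P0 in both, as was *Cdh1*. In contrast, *Epcam* was higher in P1 than in P0 in both tumors (1957 and 1950 against 1220 and 1835 RPKM). *Elf5* was slightly higher too (82.0 and 65.2 against 81.8 and 58.8), and for *Krt19* the tumors differed. Basal markers were summed over 7 genes to 906 and 959 RPKM in P1, 666 and 441 in P2, and 301 and 346 in P0. In the sorted material, fewer cells of a type and less RNA per cell cannot be told apart.

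Differences were tested with limma on the log2(RPKM + 1) scale, which understates the change of low genes. A gene entered the test if 2 or more libraries had 1 RPKM or more, which held for 12512 genes. All 9 genes passed this filter, *Mmp2* through its P1 and P2 libraries only. At a Benjamini-Hochberg adjusted p under 0.05 over all genes, limma called 0 of the 9 genes in each of the 3 comparisons (each BCSC population against bulk cells, and P1 against P2), and 0% of all genes in each. Adding the tumor number as a replicate block gave 0 calls among the 9 again, and 0%, 0.024% (3 genes) and 0% of all genes. Limma voom on the recovered reads called 0 of the 9 genes too. Without adjustment, 2 of the 9 had a limma p under 0.05 in P1 (*Mmp2* and *Timp3*) and 2 in P2 (*Mmp2* and *Mmp3*) against P0, and 0 did between P1 and P2. Over all genes, 237, 489 and 312 had such a p in the 3 comparisons. With the replicate block, 2 of the 9 had such a p in P1 against P0, 3 in P2 against P0 (*Mmp14* in addition) and 1 in P1 against P2 (*Timp1*), among 429, 767 and 562 of all genes. With 2 tumors per population, the intervals below leave room for sizeable differences in either direction for most of the genes. Where the libraries of a population lay wholly above or below others, the share of all genes doing so was not counted.

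The secreted proteases *Mmp2* and *Mmp3* had little mRNA in bulk cells and more in both BCSC populations. They were at least 2-fold higher on the log2(RPKM + 1) scale in both tumors in P1 and in P2 as compared to P0. None of the other 7 genes met that criterion in either comparison, nor did any of the 9 as lower. Of all genes, 1.67% were at least 2-fold higher and 0.272% at least 2-fold lower in both tumors in P1, against 1.7% and 0.607% in P2. The comparisons of P1 and of P2 share the P0 libraries.

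*Mmp2*, which encodes gelatinase A, a protease of denatured collagen and basement membrane type IV collagen, was at 5.99 and 17.4 RPKM in P1 of tumors 1 and 2, at 3.53 and 22.4 in P2, and at 0.00908 and 0.981 in P0. All 4 BCSC libraries lay above both bulk libraries, and tumor 2 was higher than tumor 1 in every population. The P0 library of tumor 1 held 1 read of *Mmp2* and that of tumor 2 held 58, whereas the BCSC libraries held 255 to 1296. Within tumor 1 the ratio of P1 to P0 was 660, with a 95% counting interval of 118 to 26090 that reflects the single read, and within tumor 2 it was 17.7 (13.6 to 23.5). The ratios of P2 to P0 were 388 (69.1 to 15396) and 22.8 (17.5 to 30.2). Such intervals cover counting error only, as reads are not independent molecules.

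The limma log2 fold change of *Mmp2* was 3.0 (SE 0.91, 95% interval 0.92 to 5.08, adjusted p = 1.00) in P1 and 2.86 (SE 0.91, 0.78 to 4.95, adjusted p = 0.985) in P2 against P0. Both missed the threshold over all genes, and the difference between P1 and P2, 0.14 (-1.94 to 2.22), was small beside its interval. Without the bulk library of tumor 1, the log2 fold change was 2.52 in P1 and 2.38 in P2, and over all libraries left out in turn it ranged from 2.31 (without P1 of tumor 2) to 3.70 in P1 and from 1.68 (without P2 of tumor 2) to 4.05 in P2. On the recovered reads, limma voom gave 6.59 (SE 3.59) in P1 and 6.47 (SE 3.6) in P2, again without a call. In the main fit with the replicate block added, the intervals were 1.55 to 4.46 in P1 and 1.41 to 4.32 in P2 (limma adjusted p = 0.987 and 0.605).

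Like *Mmp2*, the summed fibroblast markers were lowest in P0 within each tumor. Between P1 and P2 of tumor 1 they went opposite ways, as *Mmp2* was higher in P1 (5.99 against 3.53 RPKM) and the fibroblast sum in P2. In tumor 2 both were higher in P2, where *Mmp2* was at 22.4 RPKM against 17.4 in P1. Not every single marker was lowest in P0, as *Fap* in tumor 1 was at 0.296 RPKM in P0 and at 0 in P1 and P2. All 10 markers of that list were in the table, and their summed RPKM was 6.06 and 63.2 in P1, 39.5 and 339 in P2, and 1.68 and 4.98 in P0. Without *Col1a1* and *Col1a2*, the sums were 2.36 and 8.67 in P1, 5.85 and 26.2 in P2, and 0.296 and 0.803 in P0. *Pdgfra*, which encodes a growth factor receptor of fibroblasts, was at 1.80 and 1.33 RPKM in P1, 1.44 and 2.67 in P2, and 0 and 0.313 in P0. *Pdgfrb*, *Dpt*, *Pi16* and *Cd34* were at 0 in all 3 libraries of tumor 1, and 6, 6 and 7 of the 10 markers were at 0 there in P1, P2 and P0. Markers of pericytes, of which 5 of 6 were in the table, summed to 24.9 and 42.0 RPKM in P1, 21.6 and 36.5 in P2, and 13.5 and 36.6 in P0. Nearly all of this was *Mcam* and *Notch3*, with *Mcam* at 0 in P0 of tumor 1. *Rgs5*, *Kcnj8* and *Cspg4* were each at or below 1.38 RPKM in every library. Markers of macrophages (8 of 10) summed to 6.12 and 31.7 in P1, to at least 16.9 in both P2 libraries, and to 3.19 and 18.9 in P0, and endothelial markers (3 of 7) to at most 1.29 in any library. The part of RNA from such cells in the *Mmp2* difference was not tested.

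*Mmp3* encodes stromelysin-1, a secreted protease that cuts many matrix proteins and activates other MMPs. It was at 1.17 and 7.05 RPKM in P1, at 9.06 and 6.80 in P2, and at 0 and 1.89 in P0. Both P2 libraries lay above both P0 libraries, whereas P1 of tumor 1 was lower than P0 of tumor 2. In tumor 1, P0 had 0 reads. Set against a floor of 3 reads in that library (0.046 RPKM), the ratio of *Mmp3* was 25.4 for P1 and 197 for P2. These ratios to the floor leave out counting error. The counting intervals of the ratios to P0 in tumor 1 had lower limits of 20.3 for P1 and 159 for P2. In tumor 2 the ratios to P0 were 3.74 (2.85 to 4.97) for P1 and 3.61 (2.73 to 4.81) for P2. The limma log2 fold change against P0 was 1.30 (SE 0.85, -0.65 to 3.25) in P1 and 2.38 (SE 0.85, 0.43 to 4.34, adjusted p = 0.985) in P2, and without the bulk library of tumor 1 it was 0.53 and 1.62. Between P1 and P2 the tumors differed, the ratio being 0.129 in tumor 1 and 1.04 in tumor 2.

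**Figure D1:**
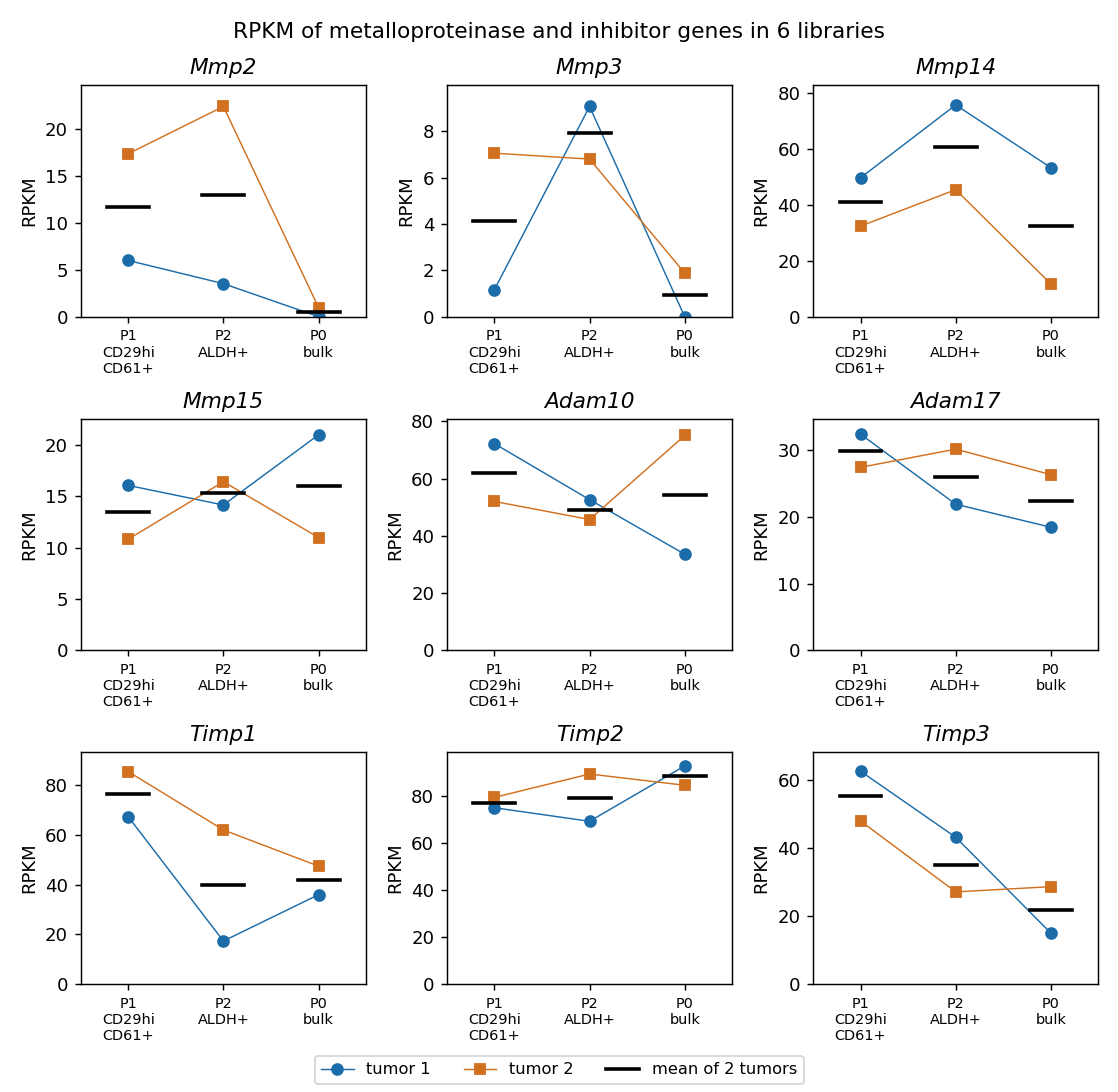
RPKM of the 9 genes in P1 (CD29hi CD61+), P2 (ALDH+) and P0 (bulk), with 1 marker per library, lines joining the libraries of a tumor and black bars for the mean of 2 tumors; each vertical axis starts at 0. *Mmp2* was at 3.53 to 22.4 RPKM in the 4 BCSC libraries and under 1 in both bulk libraries, whereas *Timp2* stayed between 69.4 and 93.0 in all 6.

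The membrane-type MMPs had no common direction. Per length, *Mmp14* mRNA was above *Mmp2* and *Mmp3* in every library, and *Mmp15* mRNA was as well, except that *Mmp2* exceeded it in P1 and P2 of tumor 2. *Mmp14*, which encodes MT1-MMP, the pericellular collagenase that activates pro-MMP2, was at 49.7 and 32.4 RPKM in P1, at 75.7 and 45.5 in P2, and at 53.3 and 11.7 in P0. P2 was highest within each tumor, but the 3 populations overlapped, and tumor 2 was below tumor 1 in each of them. The ratio of P2 to P0 was 1.42 in tumor 1 and 3.88 in tumor 2, and that of P1 to P0 was 0.932 and 2.77. The limma log2 fold change was 0.65 (SE 0.64) in P1 and 1.18 (SE 0.64, -0.29 to 2.66) in P2 against P0, and without the bulk library of tumor 2 these were -0.40 and 0.14. With the replicate block the interval in P2 was 0.25 to 2.12 (limma adjusted p = 0.781). *Mmp14* was the only 1 of the 9 genes that was lower in P1 than in P2 in both tumors, with ratios of 0.656 and 0.714 and a log2 difference of -0.54 (-2.01 to 0.94).

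*Mmp15*, which encodes another membrane-type MMP, was at 16.1 and 10.8 RPKM in P1, at 14.2 and 16.4 in P2, and at 21.0 and 11.0 in P0. Its levels overlapped in all 3 populations, and the log2 fold change was -0.19 (SE 0.47, -1.27 to 0.88) in P1 and 0.00 (SE 0.47, -1.07 to 1.07) in P2 against P0.

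The sheddases were expressed in every library, at 18.4 to 75.0 RPKM, and the intervals of their differences included 0 in each comparison. *Adam10*, whose product cuts Notch receptors and E-cadherin, was at 72.2 and 52.0 RPKM in P1, at 52.6 and 45.7 in P2, and at 33.6 and 75.0 in P0. The bulk libraries were the lowest and the highest of the 6, so that both BCSC populations were above P0 in tumor 1 and below it in tumor 2. The ratio of P1 to P0 was 2.15 and 0.693, and that of P2 to P0 was 1.57 and 0.609, in tumors 1 and 2. The limma log2 fold change was 0.28 (-0.70 to 1.26) in P1 and -0.03 (-1.01 to 0.94) in P2 against P0.

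*Adam17*, which encodes the TNF and EGF receptor ligand sheddase, was at 32.4 and 27.4 RPKM in P1, at 21.9 and 30.2 in P2, and at 18.4 and 26.3 in P0. Both P1 libraries lay above both P0 libraries, though in tumor 2 by little, and the log2 fold change was 0.42 (SE 0.38, -0.45 to 1.28). In P2 it was 0.21 (-0.65 to 1.08), with the libraries overlapping. An antisense gene, *Iah1*, overlaps *Adam17*, and its RPKM was 4.09 and 8.45 in P1, 17.1 and 7.77 in P2, and 7.40 and 9.33 in P0. Whether reads were counted by strand is not given in the sources used here, so reads of such partners cannot be told apart.

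Among the inhibitors, *Timp3* and *Timp1* stood higher in P1 than in either other population, whereas *Timp2* was nearly level. *Timp3* encodes the inhibitor that binds to matrix and also blocks ADAM17, and it was at 62.6 and 47.9 RPKM in P1, at 43.1 and 27.1 in P2, and at 14.9 and 28.6 in P0. Both P1 libraries lay above all 4 others. P2 exceeded P0 in tumor 1 with a ratio of 2.89, and not in tumor 2, where the ratio was 0.946. The ratios of P1 to P0 were 4.19 and 1.68, and those of P1 to P2 were 1.45 and 1.77. The limma log2 fold change was 1.36 (SE 0.43, 0.38 to 2.34, adjusted p = 1.00) in P1 against P0, 0.70 (SE 0.43, -0.29 to 1.68) in P2 against P0 and 0.66 (SE 0.43, -0.32 to 1.65) in P1 against P2. Without the bulk library of tumor 1, the first of these was 0.91.

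*Timp1*, which encodes a secreted inhibitor that acts weakly on membrane-type MMPs, was at 67.4 and 85.6 RPKM in P1, at 17.3 and 62.1 in P2, and at 36.0 and 47.5 in P0. Both P1 libraries were above all 4 others, and the P2 libraries were the lowest and the third highest of the 6. P1 exceeded P0 by similar ratios in both tumors, 1.87 and 1.80, and the ratios of P1 to P2 were 3.90 and 1.38. The ratio of P2 to P0 was 0.480 in tumor 1 and 1.31 in tumor 2. The log2 fold change was 0.86 (SE 0.55, -0.39 to 2.12) in P1 against P0, -0.32 (SE 0.55, -1.57 to 0.94) in P2 against P0, and 1.18 (SE 0.55, -0.07 to 2.43) in P1 against P2. With the replicate block the interval of the last was 0.27 to 2.09 (limma adjusted p = 0.949). The last was 0.29 without the ALDH+ library of tumor 1 and 2.07 without that of tumor 2.

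Each of the 7 basal markers was also higher in P1 than in P0 in both tumors, by amounts that differed widely. *Krt5*, a keratin of basal epithelium, was at 128 and 48.8 RPKM in P1, 4.67 and 3.52 in P2, and 3.23 and 8.87 in P0, and *Cnn1* was at 0 in both P0 libraries and in P2 of tumor 1. *Krt14*, the most abundant of them, was at 456 and 675 RPKM in P1, 471 and 339 in P2, and 224 and 245 in P0, so that P1 of tumor 1 was not above P2. *Myh11* was nearly level, at 1.93 and 1.61 RPKM in P1 against 1.84 and 1.36 in P0. The part of basal cells in the levels of *Timp1* and *Timp3* was not tested. *Timp1* lies within *Syn1* and *Timp3* within *Syn3* on the opposite strand. *Syn1* was at 2.53 and 0.520 RPKM in P1, 0 and 0.405 in P2, and 0.349 and 0.385 in P0, and *Syn3* stayed at or below 0.795 RPKM in all 6 libraries.

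*Timp2*, whose product inhibits MMP2 and also takes part in its activation, was at 75.2 and 79.5 RPKM in P1, at 69.4 and 89.5 in P2, and at 93.0 and 84.7 in P0. Both P1 libraries lay below both P0 libraries, but the highest of the 6 levels was only 1.34-fold the lowest. The log2 fold change was -0.20 (SE 0.30, -0.89 to 0.49) in P1 and -0.17 (SE 0.30, -0.86 to 0.52) in P2 against P0, and both intervals stayed within 1 log2 unit of 0. *Cep295nl* overlaps *Timp2* on the same strand and has no RPKM of its own here, so its reads cannot be told apart.

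**Figure D2:**
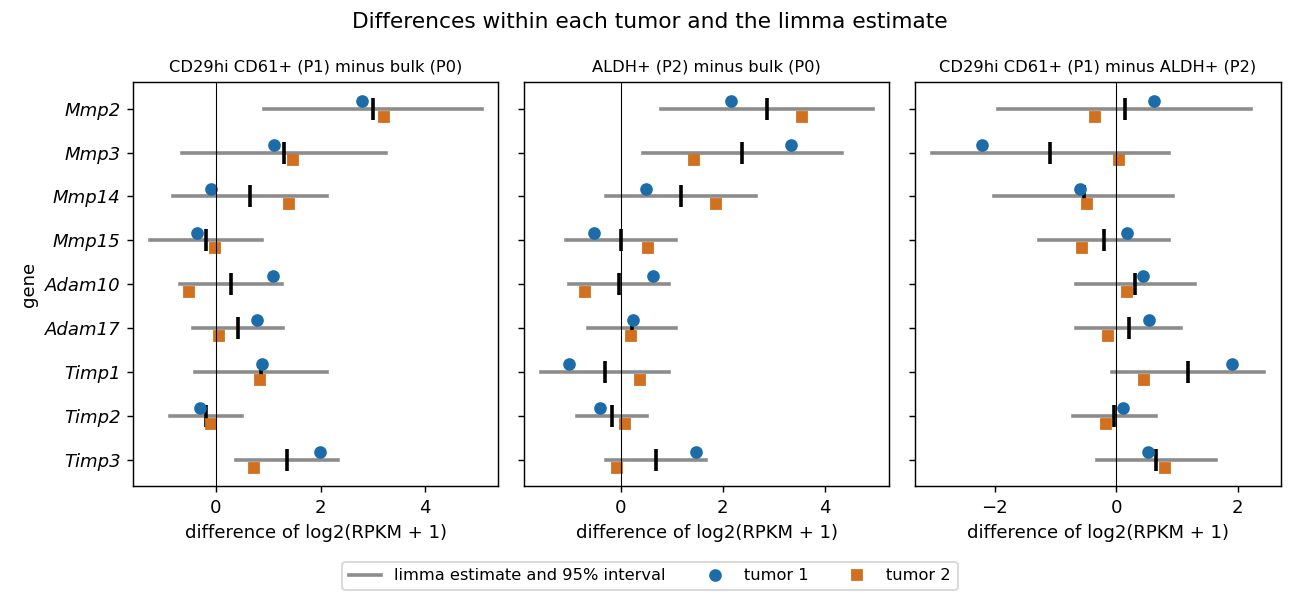
Differences of log2(RPKM + 1) for the 9 genes, P1 minus P0, P2 minus P0 and P1 minus P2 from left to right, with a marker for each tumor, a black bar for the limma estimate and a gray line for its 95% interval; the horizontal axes differ in range. The intervals of *Mmp2* lie above 0 against P0 in both BCSC populations, from 0.92 and from 0.78, that of *Mmp3* in P2 from 0.43 and that of *Timp3* in P1 from 0.38, and 0 of the 9 genes had an adjusted p under 0.05.

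Read by direction within the tumors, 5 of the 9 genes (*Mmp2*, *Mmp3*, *Adam17*, *Timp1* and *Timp3*) were higher in P1 than in P0 in both tumors, where 29.2% of all genes were, and 2 (*Mmp15* and *Timp2*) were lower in both, where 17.6% were. In P2 against P0, 4 (*Mmp2*, *Mmp3*, *Mmp14* and *Adam17*) were higher in both tumors and 0 were lower, beside 24.5% and 22.9% of all genes. In P1 against P2, 3 (*Adam10*, *Timp1* and *Timp3*) were higher in both tumors and 1 was lower, beside 31% and 21.5% of all genes. At least 2-fold in both tumors, 0 of the 9 were higher or lower in P1 than in P2, beside 1.32% and 0.975% of all genes. The median log2 fold change of the 9 genes and of all genes was 0.65 and 0.12 in P1 against P0, 0.21 and 0.00 in P2 against P0, and 0.14 and 0.11 in P1 against P2. With median-of-ratios scaling the medians of all genes were 0.04, -0.01 and 0.05, and those of the 9 genes 0.56, 0.20 and 0.08.

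The make-up of the pool of the 4 MMP genes differed between the populations and between the tumors. The summed RPKM of the 4 MMP genes was 72.9 and 67.7 in P1, 102.5 and 91.1 in P2, and 74.3 and 25.6 in P0, with P2 highest in both tumors. *Mmp14* alone gave 68.2% and 47.9% of it in P1, 73.9% and 49.9% in P2, and 71.7% and 45.8% in P0, and it was higher in tumor 1 than in tumor 2 in each population. The secreted enzymes *Mmp2* and *Mmp3* together gave 9.82% and 36.1% in P1, 12.3% and 32.0% in P2, and 0.0122% and 11.2% in P0. Within each tumor their share was lowest in bulk cells, though P0 of tumor 2 lay between the values of P1 and P2 of tumor 1. Other MMPs are left out of these sums and shares, which depend on the genes listed. Among those left out, *Mmp13* was at 10.6 and 4.21 RPKM in P1, 8.28 and 13.1 in P2, and 0.0206 and 2.63 in P0.

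The summed RPKM of the 3 TIMP genes was 205 and 213 in P1, 130 and 179 in P2, and 144 and 161 in P0, with P1 highest in both tumors. *Timp2* gave 36.6% and 37.3% of it in P1, 53.4% and 50.1% in P2, and 64.6% and 52.7% in P0, and the P1 libraries did not overlap with the 4 others. The ratio of TIMP to MMP mRNA over the listed genes was 2.81 and 3.15 in P1, 1.27 and 1.96 in P2, and 1.94 and 6.29 in P0. P2 was lowest in tumor 1 and in tumor 2. The bulk libraries were the lowest but one and the highest of the 6 in this ratio. Of the 9 genes, *Timp2* had the highest RPKM in each library other than P1 of tumor 2, where *Timp1* led, and P2 of tumor 1, where *Mmp14* did. The ratio of *Adam10* to *Adam17* was 2.23 and 1.90 in P1, 2.40 and 1.52 in P2, and 1.82 and 2.85 in P0.

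**Figure D3:**
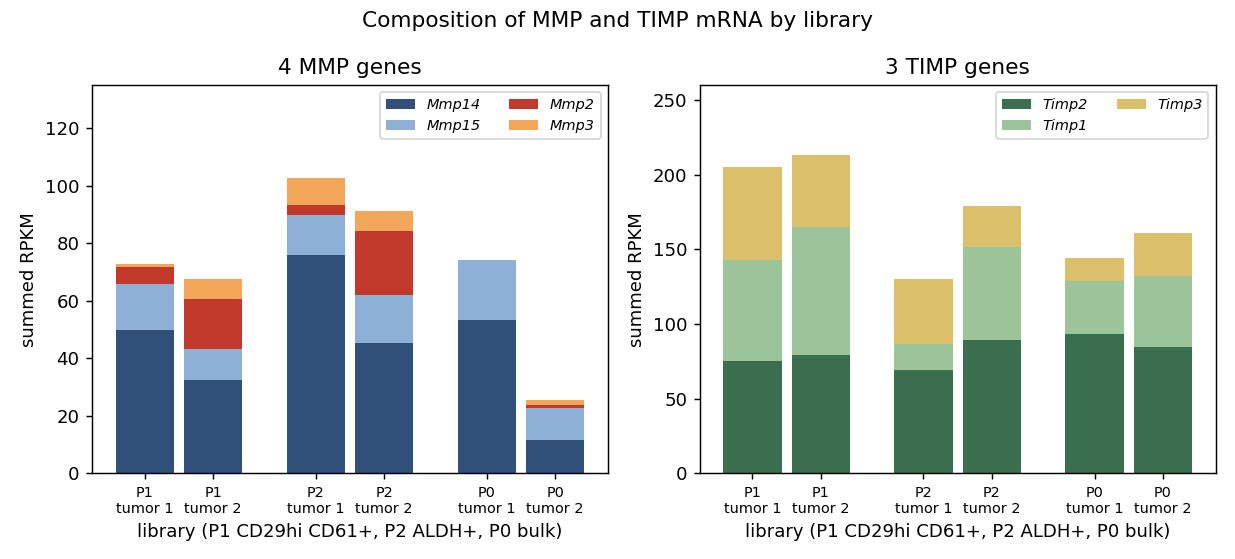
Summed RPKM of the 4 MMP genes (left) and of the 3 TIMP genes (right) in each library, stacked by gene, with P1 (CD29hi CD61+), P2 (ALDH+) and P0 (bulk) from left to right and tumors 1 and 2 side by side. *Mmp14* is the tallest band of the left panel in every library, *Mmp2* and *Mmp3* together reach 36.1% in P1 of tumor 2 and are 0.0122% in P0 of tumor 1, and the TIMP sums of P1 (205 and 213) exceed those of P2 and P0.

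The genes whose profile over the 6 libraries was most like that of *Mmp2*, by the mean absolute difference of log2(RPKM + 1) after centring each gene on its own mean, were *Fstl1* (0.22) and *Serpinf1* (0.28). For *Mmp3* they were *Loxl3* (0.22) and *Hist2h2ab* (0.32), and for *Mmp14* they were *Aebp1* (0.14) and *Cxx1a* (0.19). *Timp1* was closest to *Rnf39* (0.11) and *Preb* (0.11), and *Timp3* to *2700049A03Rik* (0.09) and *Rbm43* (0.11). These distances describe 6 libraries that come from only 2 tumors and differ in depth.

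The 9 genes were set in the wider protease network by 84 other genes in 9 lists, of which 70 were in the table and 55 passed the filter. Limma called 0 of the 55 as higher and 0 as lower in each of the 3 comparisons, also with the replicate block. Their median log2 fold change as compared to bulk cells was 0.12 in P1 and 0.20 in P2, and between P1 and P2 it was -0.17. At least 2-fold in both tumors, 0 of them stood higher in P1 against P0 and 5 in P2 against P0, namely *Mmp13*, *Mmp10*, *Adam12*, *Adamts4* and *Mrc2*, and 0 stood lower in either, beside the 1.67% and 1.7% of all genes given above for higher. *Mmp10*, *Adam12* and *Mrc2* passed the filter through BCSC libraries only. Between P1 and P2, 0 stood higher and 1, *Adamts2*, lower, beside 1.32% and 0.975% of all genes. *Adamts2* was at 0.00227 and 0.924 RPKM in P1 and at 1.58 and 3.94 in P2, and passed the filter through P2 only. Its P1 library of tumor 1 held 1 read.

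Of 19 further MMPs, 12 were in the table and 6 passed the filter. *Mmp13*, which encodes collagenase 3, was at 10.6 and 4.21 RPKM in P1, at 8.28 and 13.1 in P2, and at 0.0206 and 2.63 in P0, so that all 4 BCSC libraries lay above both bulk libraries. Its log2 fold change was 2.01 (SE 0.78) in P1 and 2.57 (SE 0.78) in P2 against P0. *Mmp10*, which encodes stromelysin-2, was at 1.21 and 1.31 RPKM in P1, at 4.03 and 2.73 in P2, and at 0 and 0.445 in P0. For both genes P0 of tumor 1 was the lowest library, as for *Mmp2* and *Mmp3*.

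Of 7 further ADAM genes 5 were tested, and of 16 ADAMTS genes 9 were. *Adam12*, which encodes a sheddase of mesenchymal and muscle cells, was at 0.407 and 0.308 RPKM in P1, at 1.22 and 1.08 in P2, and at 0 in both P0 libraries. *Adam8*, a sheddase gene of leukocytes and tumor cells, was at 9.94 and 5.35 RPKM in P1, at 11.8 and 11.0 in P2, and at 22.4 and 10.5 in P0, with both P1 libraries below both P0 libraries and a log2 fold change of -0.98 (SE 0.53). *Adamts4*, which encodes an aggrecanase, was at 2.88 and 3.29 RPKM in P1, at 5.27 and 3.90 in P2, and at 1.97 and 0.350 in P0.

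The other metalloproteinase inhibitors stood higher in P1 than in P0 by median, with 3 of 5 listed genes tested and a median log2 fold change of 1.43. *Reck*, which encodes a membrane-anchored inhibitor of MMPs, was at 4.89 and 3.54 RPKM in P1, at 0.778 and 2.69 in P2, and at 0 and 2.41 in P0. Both P1 libraries lay above all 4 others, with a log2 fold change of 1.49 (SE 0.81) against P0. *A2m*, the plasma protease inhibitor alpha-2-macroglobulin, was at 17.6 and 24.2 RPKM in P1, at 0.0180 and 18.2 in P2, and at 2.99 and 15.2 in P0.

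Of 8 plasminogen activation genes 5 were tested, with a median log2 fold change against P0 of -0.34 in P1 and 0.28 in P2. *Plau*, which encodes urokinase, was at 144 and 112 RPKM in P1, at 342 and 165 in P2, and at 264 and 145 in P0, so that within each tumor P2 was highest and P1 lowest, and both P1 libraries lay below the other 4, though narrowly. *Furin*, which encodes a convertase that removes the prodomain of membrane-type MMPs and ADAMs, was at 15.6 and 26.3 RPKM in P1, at 20.3 and 25.9 in P2, and at 15.7 and 17.3 in P0.

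Of the 9 partners of the sheddases 8 were tested, with a median log2 fold change against P0 of -0.04 in P1 and 0.26 in P2, and of the 13 substrates all 13 were, with -0.14 and -0.16. *Tspan33*, which encodes a tetraspanin that associates with ADAM10, was at 3.87 and 11.6 RPKM in P1, at 25.2 and 14.2 in P2, and at 23.0 and 10.4 in P0. *Tgfa*, which encodes an EGF receptor ligand released by ADAM17, was at 5.71 and 9.86 RPKM in P1, at 2.45 and 5.97 in P2, and at 12.1 and 9.17 in P0, with both P2 libraries below both P0 libraries and a log2 fold change of -1.24 (SE 0.59). *Lrp1*, which encodes an endocytic receptor for proteases and TIMPs, was at 1.74 and 7.79 RPKM in P1, at 2.25 and 7.42 in P2, and at 0.990 and 1.12 in P0, and all 4 BCSC libraries lay above both bulk libraries.

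**Figure D4:**
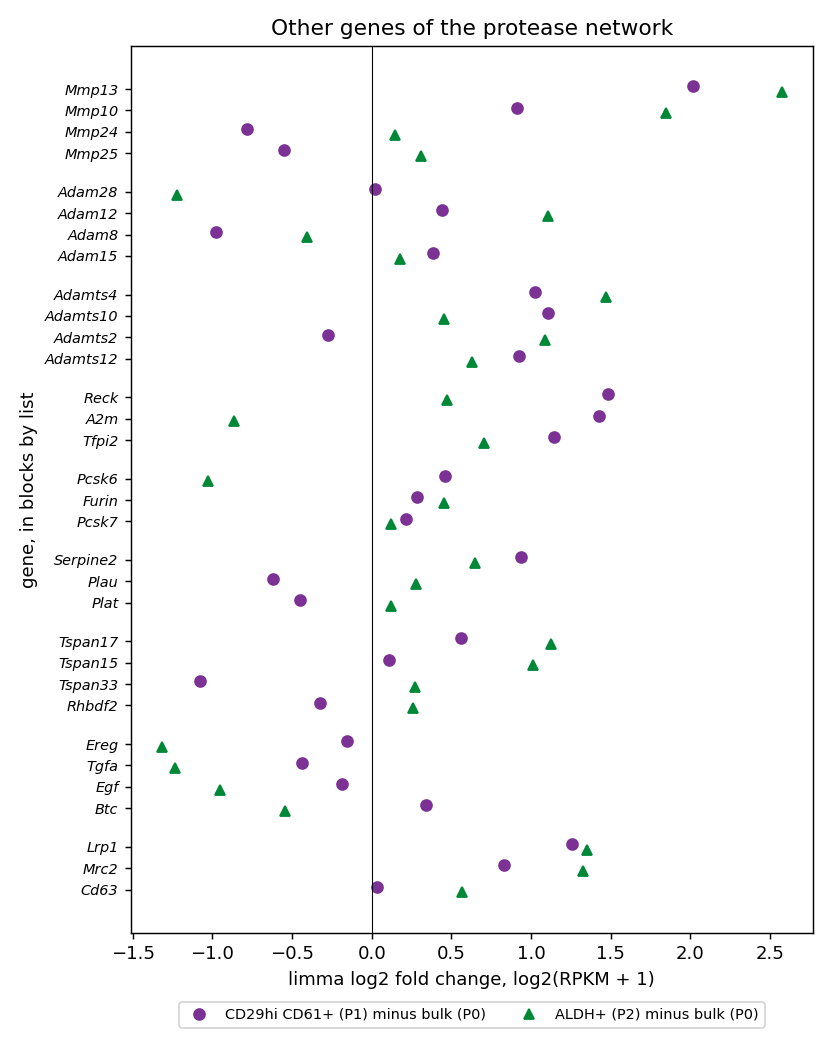
Limma log2 fold change on log2(RPKM + 1) of the named genes from the 9 lists of the protease network, in blocks by list, with circles for P1 minus P0 and triangles for P2 minus P0. *Mmp13* is farthest to the right in both (2.01 and 2.57), *Ereg* (-1.32) and *Tgfa* (-1.24) are farthest to the left in P2, and 0 of the genes tested were called.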

How the data were processed

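RNA was sequenced as poly(A) libraries (PrepX kit, HiSeq) from CD29hi CD61+ (P1), ALDH+ (P2) and bulk (P0) cells of 2 tumors. The study names the standard Illumina pipeline for alignment. The aligner, gene annotation, genome build and strand setting are not given in the sources used here. The authors deposited RPKM for 6 libraries and 14897 genes. For P1 and P0 they also deposited group means (a normalized signal, reads divided by size factors) and their own test, with a ratio as fold change, the log2 of it and a p-value, which was not used. The mean signal served only to recover the reads behind the RPKM. With a tolerance of 0.01, these were whole numbers, and 1 gene could not be recovered. The units were read from the values.

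The table held RPKM in place of counts, so limma 3.58.1 (R 4.3.3, intensity trend) was run on log2(RPKM + 1). The filter of 1 RPKM in 2 or more libraries kept 12512 genes with a symbol. A single model without a block held the 6 libraries, with Benjamini-Hochberg adjustment at 0.05. The fit was tested on simulated data. Replicate numbers mark the same tumor and so pair the libraries, and deviations from the population means correlated at 0.185 (P1 and P0), 0.211 (P2 and P0) and 0.242 (P1 and P2) across genes. Depth was 19037070 to 48008802 reads, and a floor of 3 reads was used where a gene had none. Alternatives were a pseudocount of 0.1, no filter, median-of-ratios scaling, the replicate block, limma voom on recovered reads, fits of 2 populations and leaving out each library.

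The 9 genes and all lists were chosen with earlier results of these data known. All 9 are named. From each list, up to 4 tested genes with the same sign in both tumors and the largest absolute log2 fold change against P0 (the larger of P1 and P2) could be named, and the 2 genes most like each of the 9. Those of *Timp2*, *Mmp15*, *Adam10* and *Adam17* are not printed. A gene that the rule would name from the lists is not reported here. Within-tumor intervals are exact 95% intervals of read ratios. Promoters came from RefSeq (GRCm38.p6), and overlapping genes from GENCODE. Software was Python 3.11.15 with pandas 2.3.3, numpy 2.4.6, matplotlib 3.10.9 and scipy 1.17.1.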

Additional observations from a re-analysis of the deposited data

How the results depend on the processing

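Limma called 0 of the 9 genes under any alternative, and 327 of 351 recomputed log2 fold changes kept their direction. Many of these values could not move. No filter, the replicate block, fits of 2 populations and leaving out a library outside the comparison leave the log2 fold change as it was. The smallest adjusted p was 0.0949, for *Timp1* in P1 against P2 without the ALDH+ library of tumor 2. Over all genes, the counts of calls moved. With the replicate block, 3 genes were called in P2 against P0, and the block changed no call among the 9. A pseudocount of 0.1 gave 2 calls there. Limma voom on recovered reads called 9 genes in P1 against P0, 1 in P2 against P0 and 7 in P1 against P2, and 4, 6 and 16 with the block. Leaving out 1 library gave 0 to 0 calls in P1 against P0, 0 to 40 in P2 against P0 and 0 to 55 in P1 against P2, the highest without the ALDH+ library of tumor 2. A pseudocount of 0.1 brought the genes at least 2-fold apart in both tumors to 570, 538 and 552 in these comparisons, and *Mmp2* and *Mmp3* remained among them in both comparisons with bulk cells, with 0 of the 9 between P1 and P2. The cause was not tested.

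The 24 reversals concerned differences that had not passed the test. *Mmp15* in P2 against P0 became -0.0089 with median-of-ratios scaling, -0.071 with voom and -0.11 with voom and the block. *Adam10* there became 0.020 with voom and 0.022 with voom and the block, and *Mmp2* in P1 against P2 became -0.23 with voom and the block. Leaving out 1 library, the log2 fold change in P1 against P0 ranged from -0.40 to 1.69 for *Mmp14*, -0.63 to 0.24 for *Mmp15* and -0.29 to 0.85 for *Adam10*. In P2 against P0 it ranged from -0.44 to 0.44 for *Mmp15*, -0.60 to 0.53 for *Adam10*, -0.033 to 0.46 for *Adam17*, -1.21 to 0.58 for *Timp1* and -0.35 to 0.012 for *Timp2*. In P1 against P2 it ranged from -1.05 to 1.32 for *Mmp2*, -0.46 to 0.070 for *Mmp15*, -0.016 to 0.43 for *Adam17* and -0.21 to 0.15 for *Timp2*. A fit without 1 library leaves a population with a single library, assumed to vary like the others.

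With 2 tumors, the limma p-values set each difference against a spread estimated from these 6 libraries, which limma adjusts toward that of other genes. Without the block, that spread includes differences between the tumors. The libraries of tumor 1 were deeper than those of tumor 2 and had more genes without reads, and low levels there, as for *Mmp2* and *Mmp3* in bulk cells, do not show that the mRNA was absent. mRNA levels do not measure protease activity, which depends on proenzyme activation and on inhibitors. Markers were summed over short lists, and some genes of those lists were not analysed here.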
